A study of Homo sapiens with 414 samples.

Results

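The genes described here are the nuclear genes for the protein subunits of the mitochondrial respiratory chain and the ATP synthase, measured in LNCaP, a human prostate carcinoma line that grows in response to androgens. They were taken by name from the protein-coding rows of the deposited count table (NDUFA, NDUFB, NDUFC, NDUFS and NDUFV genes, SDHA to SDHD, UQCR genes, CYC1, cytochrome c oxidase genes from COX4I1 and COX5A to COX8A, and ATP5 subunit genes), without assembly factors. This gave 81 of 36135 genes: 36 of complex I, 4 of complex II, 10 of complex III, 16 of complex IV and 15 of complex V. NDUFA4 and its relative NDUFA4L2 match the rule by an old complex I name and were placed with complex IV, where the NDUFA4 protein is now assigned. COX6A2 and NDUFC2-KCTD14 were not analysed here.

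The knockdown arm had received an siRNA against SULT2B1, a sulfotransferase whose b isoform sulfates cholesterol and related sterols, and the control arm a non-targeting siRNA from another supplier. Each arm thus rests on 1 siRNA and 1 cell line, and both were harvested 48 h after transfection. Live single cells were captured on microfluidic plates in 3 batches that each held both arms. This gave 192 knockdown cells (66, 65 and 61 in batches 1, 2 and 3) and 209 control cells (76, 66 and 67). Well codes in the sample labels recur in both arms of each batch, so the arms did not share a plate there. A difference between arms within a batch thus cannot be told apart from a difference between plates. Within a batch the reads of all cells of 1 arm were added up, so that each arm has 3 libraries of 71630108 to 84359044 reads, and whether the batches were separate cultures is not stated. SULT2B1 had 13, 21 and 0 reads in knockdown batches 1, 2 and 3, against 152, 109 and 332 in the control libraries. Its log2 fold change of -4.13 ± 1.43 SE did not pass the edgeR test (adjusted p = 0.268). The prostate luminal markers were present in both arms, with summed levels of 2665 to 3992 CPM (counts per 1000000 reads) in knockdown libraries and 5010 to 6055 CPM in control libraries. Of these 10 markers 2 passed the test, KLK3 (log2 fold change -1.51, adjusted p = 0.0416) and KLK2 (-1.26, adjusted p = 0.0446), both lower in the knockdown arm; with batch as a block neither passed (adjusted p = 0.154 for KLK3 and 0.0703 for KLK2). Not all of the list ran that way: the keratins KRT8 (79.1, 91.9 and 74.1 CPM in knockdown libraries, 46.4, 52.5 and 40.6 CPM in control libraries) and KRT18 (203.2, 199.5 and 182.2 CPM in knockdown libraries, 121.0, 129.7 and 133.3 CPM in control libraries) lay higher in knockdown without overlap (log2 fold change 0.81, adjusted p = 0.0930 for KRT8 and 0.61, adjusted p = 0.0641 for KRT18), and DESeq2 called 2 of the 10 higher and 5 lower. The part of these markers in the subunit values was not tested. The 11 markers of basal, mesenchymal, blood and endothelial cells summed to 6.83 to 9.46 CPM in knockdown and 2.90 to 12.7 CPM in control libraries, and 1 of them was at 0 throughout. The control library of batch 1 stood apart, with 16.1% of its reads from mitochondrially encoded genes, against 6.84% to 8.79% in the 3 knockdown libraries and 8.13% and 7.29% in the other control libraries.

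Complex I oxidises NADH, complex II oxidises succinate, and both pass electrons through ubiquinone to complex III and by cytochrome c to complex IV, which reduces oxygen. Complexes I, III and IV pump protons across the inner membrane, and complex V, the ATP synthase, uses the resulting gradient to make ATP. All but complex II combine nuclear subunits, made in the cytosol and imported, with subunits encoded by mitochondrial DNA. Prostate epithelium is known for a truncated citric acid cycle that lets citrate accumulate, a trait that prostate carcinoma cells tend to lose.

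Most subunit genes lay slightly higher in the knockdown arm, and none passed the test. Of the 79 members with enough reads to be tested, 68 had a log2 fold change (knockdown over control) above 0, against 50.4% of the 20326 genes tested and 47.5% of protein-coding genes averaging at least 20 CPM. The median log2 fold change was 0.15 over the members and 0.01 over all genes. No member reached an adjusted p under 0.05 in the edgeR quasi-likelihood test with Benjamini-Hochberg adjustment, where 0.777% of all genes did. The lowest adjusted p among members was 0.148, for NDUFA11. At an unadjusted p under 0.05, 12 members were higher and 0 lower. Of all genes, 13.5% were under this p in either direction and 6.4% were higher. Of 6213 protein-coding genes averaging at least 20 CPM, 1508 were under it and 619 (9.96%) were higher. DESeq2, which called 7.94% of genes in either direction and 3.63% as higher, called 2 members higher and 0 lower: NDUFA11 (adjusted p = 0.00742) and NDUFA13 (adjusted p = 0.0163), the second named here after its value was seen. With batch as a block, 0 members passed in edgeR, the lowest adjusted p being 0.256, and 0.187% of all genes did.

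The direction was shared by the batches, with different sizes. Within batches, the median difference of members in log2(CPM + 1), knockdown minus control, was 0.17 in batch 1, 0.08 in batch 2 and 0.21 in batch 3. In 44 members the knockdown library was the higher in all 3 batches, as in 19.2% of all genes (21.9% of protein-coding genes averaging at least 20 CPM), and in 7 it was the lower in all 3, as in 18.2% of all genes (25.8% at that level). The 7 were NDUFA7, NDUFB10, NDUFS4, SDHC, ATP5F1C, ATP5MC2 and ATP5MF. In 25 members every knockdown library lay above every control library, as in 10.5% of all genes (13.2% at that level), and in 4 (NDUFA7, SDHC, ATP5F1C and ATP5MF) every knockdown library lay below, as in 10.1% of all genes (16% at that level). Differences were small: only COX7B2 exceeded 1.5-fold, and for 76 members the log2 fold change with 2 standard errors on either side stayed within 2-fold.

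**Figure D1:**
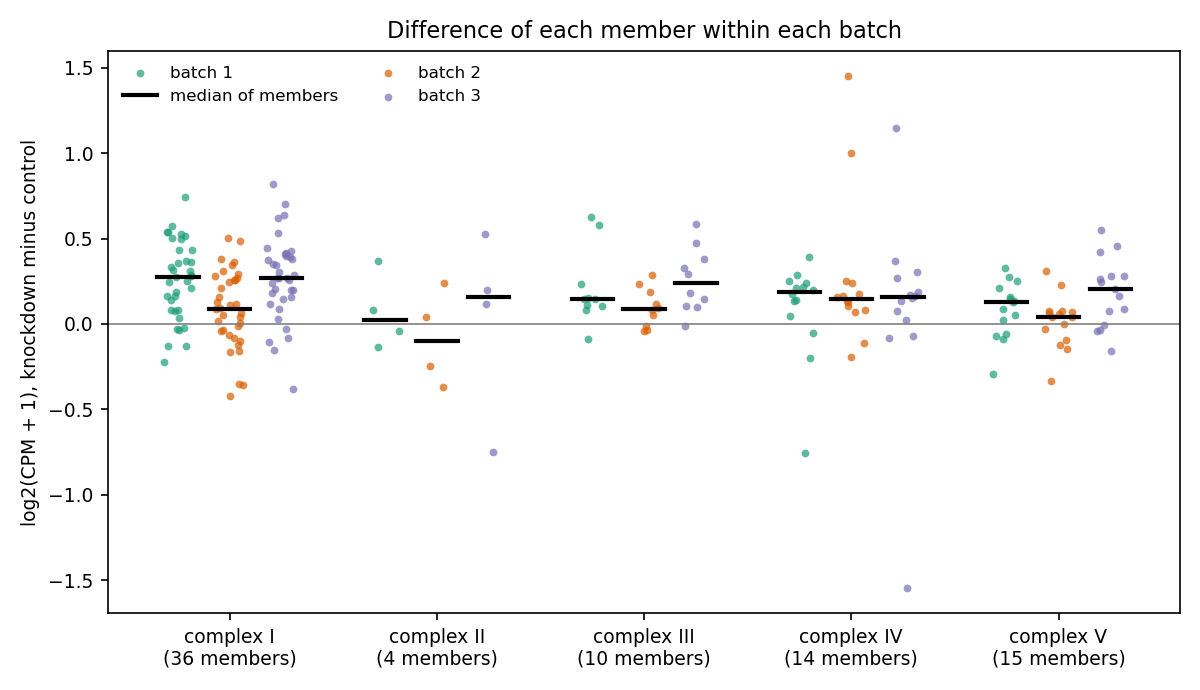
Each point is 1 tested member in 1 batch, placed by its difference in log2(CPM + 1), knockdown minus control, with members grouped by complex and coloured by batch; black bars are medians. The batch medians lie above 0 in every complex except complex II in batch 2, and the points far from 0 in complex IV belong to the low genes COX7B2 and NDUFA4L2.

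The sum over all members showed the same ordering. Member reads per 1000000 of all reads (RPM) were 25069, 24498 and 26875 in knockdown batches 1, 2 and 3, against 20453, 22916 and 22850 in the control libraries. Every knockdown library was above every control library, by 22.6%, 6.91% and 17.6% within batches. These sums are not TMM-scaled. Without TMM scaling the median log2 fold change was 0.08 over all genes and 0.22 over members. With mitochondrially encoded genes left out of the denominator, the sums were 27484, 26298 and 29308 in knockdown and 24376, 24945 and 24647 in control libraries, and the within-batch differences were 12.8%, 5.43% and 18.9%. The difference in batch 1 was thus smaller once the large mitochondrially encoded share of that control library was set aside, and batch 2 had the smallest difference on either scale. The sums are shares of a library's reads and not amounts of RNA per cell.

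Complex V was the exception in these sums. On the denominator without mitochondrially encoded genes, complex I members summed to 8648, 8208 and 8964 RPM in knockdown libraries and 7350, 7500 and 7382 in control libraries. Complex III members summed to 3152, 2953 and 3454 in knockdown and 2728, 2730 and 2819 in control libraries, and complex IV members to 5451, 5332 and 5812 in knockdown and 4804, 4812 and 5129 in control libraries. In these complexes, as in the smaller complex II (837, 801 and 856 in knockdown, 745, 757 and 752 in control libraries), the arms did not overlap. Complex V members summed to 9395, 9004 and 10223 in knockdown and 8749, 9146 and 8565 in control libraries, so that the arms overlapped and batch 2 ran the other way, by -1.55%. Abundant genes weigh most in such a sum, and in batch 2 ATP5F1B alone had 2363 CPM in knockdown and 2617 CPM in control. By the median member, the batch 2 difference in log2(CPM + 1) was 0.04 in complex V and -0.10 in complex II.

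**Figure D2:**
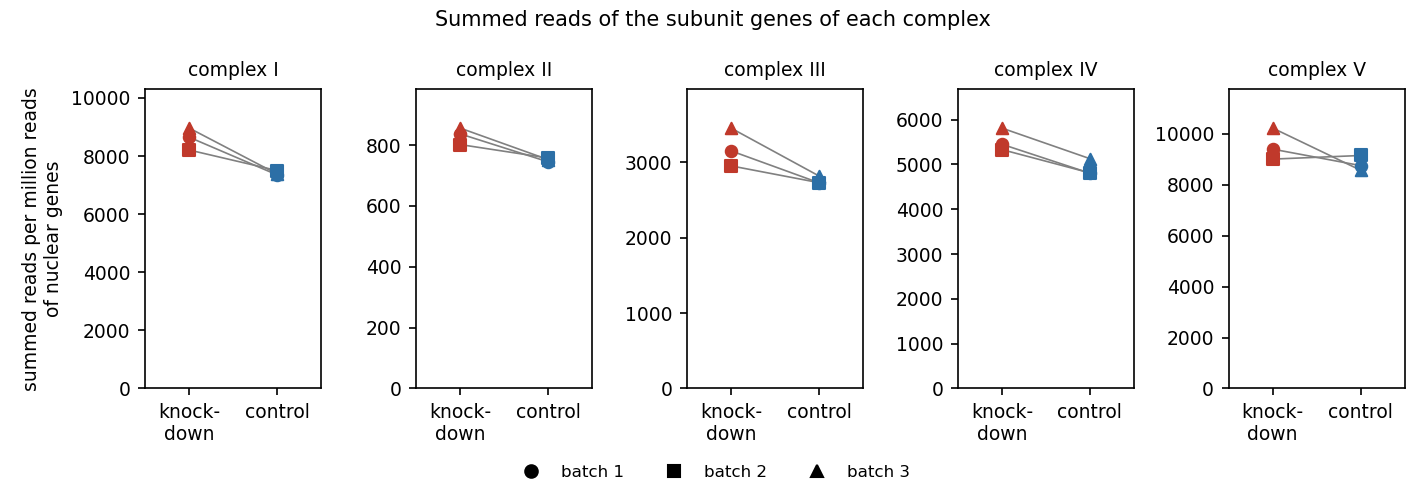
Reads of the members of each complex, summed, per 1000000 reads of nuclear genes; lines join the 2 arms of a batch and marker shapes give the batch. Knockdown libraries lie above control libraries in complexes I to IV, and in complex V the line of batch 2 runs the other way.

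Levels were compared between genes per kilobase of transcript, using the median length of each gene's coding transcripts. Averaged over the 6 libraries, tested members spanned 5.85 to 1331 CPM per kilobase. ATP5F1B, the catalytic beta subunit of the ATP synthase, was the highest at 1331, followed by COX7A2 at 1124, NDUFB4 at 992 and NDUFS5 at 987. The lowest were NDUFA4L2, COX7B2 and ATP5F1D, at 5.85, 7.78 and 14.5. By complex, the median member stood at 167 CPM per kilobase in complex I, 138 in complex II, 281 in complex III, 467 in complex IV and 554 in complex V. These are transcript levels in the authors' counting and do not measure subunit stoichiometry.

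**Figure D3:**
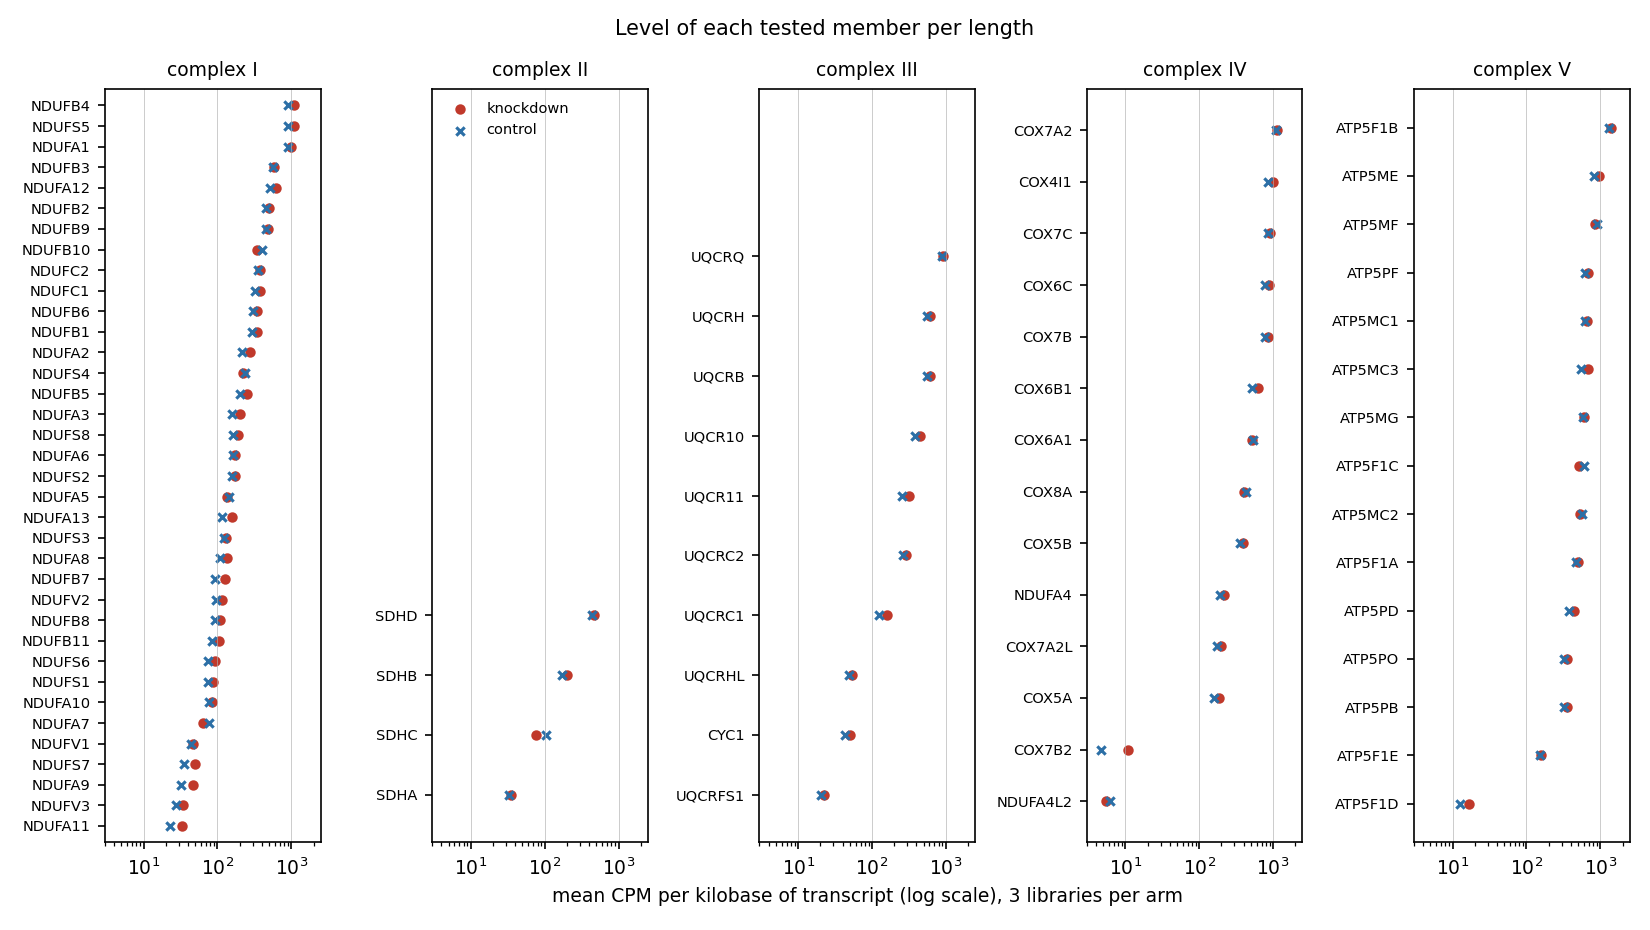
Mean CPM per kilobase of transcript, on a log axis, for each tested member in knockdown (dots) and control (crosses), ordered by level within each complex. The 2 arms nearly coincide for most genes, and COX7B2 has the widest gap.

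Complex I had the largest median log2 fold change of the 5 complexes, 0.22, with 32 of 36 members above 0. No member passed the test. Of the 12 members under an unadjusted p of 0.05, 8 belonged here: NDUFA2, NDUFA9, NDUFA11, NDUFA12, NDUFA13, NDUFB5, NDUFS5 and NDUFS7. All 8 were higher, as were 6.4% of all genes (9.96% of protein-coding genes averaging at least 20 CPM) at this p. In 13 members every knockdown library lay above every control library, as in 10.5% of all genes (13.2% at that level). Every knockdown library lay below in 10.1% of all genes (16% at that level), and in complex I only in NDUFA7, an accessory subunit. NDUFA7 had 41.7, 32.7 and 41.0 CPM in knockdown and 48.8, 44.2 and 45.6 CPM in control libraries (log2 fold change -0.27 ± 0.18 SE, adjusted p = 0.609). It is named here after its values were seen.

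NDUFA11 (chr19:5891276-5904006, minus strand, GRCh38), an accessory subunit of the membrane arm, had 66.4, 71.6 and 78.6 CPM in knockdown batches 1, 2 and 3, against 45.5, 50.3 and 50.1 CPM in the control libraries. The arms were well separated and each batch showed the same order. Its mean was 72.2 ± 6.1 CPM in knockdown and 48.6 ± 2.7 CPM in control libraries (SD, n = 3 each), and the edgeR log2 fold change of 0.57 ± 0.15 SE had an adjusted p of 0.148. Over the 15 alternative fits its log2 fold change ranged from 0.49 to 0.64 and its adjusted p from 0.00742, in DESeq2, to 0.353.

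NDUFS7 (chr19:1383527-1395589, plus strand), a core subunit that carries the iron-sulfur cluster next to the ubiquinone site, had 46.6, 50.9 and 59.2 CPM in knockdown libraries and 31.8, 42.4 and 35.9 CPM in control libraries. Its lowest knockdown library was above its highest control library, with a log2 fold change of 0.51 ± 0.19 SE and an adjusted p of 0.299. NDUFA9 (chr12:4649095-4694317, plus strand), an accessory subunit of the same peripheral arm, had 225.7, 180.6 and 218.8 CPM in knockdown libraries and 167.0, 149.7 and 123.5 CPM in control libraries. The arms did not overlap there either, and the log2 fold change was 0.51 ± 0.15 SE with an adjusted p of 0.203. NDUFB4 (chr3:120596309-120602500, plus strand), a membrane arm subunit and the most abundant complex I member per kilobase, had 629.4, 733.7 and 822.4 CPM in knockdown libraries and 561.6, 598.4 and 646.2 CPM in control libraries. Here the knockdown library of batch 1 lay among the control values (log2 fold change 0.28 ± 0.12 SE, adjusted p = 0.396), and the value was 0.18 without the knockdown library of batch 3. NDUFA13 (chr19:19515736-19529054, plus strand), a membrane arm subunit also known as GRIM-19, had 132.5, 129.3 and 132.1 CPM in knockdown and 88.6, 100.4 and 100.0 CPM in control libraries. Its 3 knockdown values were close together and above all control values, and its edgeR log2 fold change of 0.45 ± 0.12 SE had an adjusted p of 0.149.

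**Figure D4:**
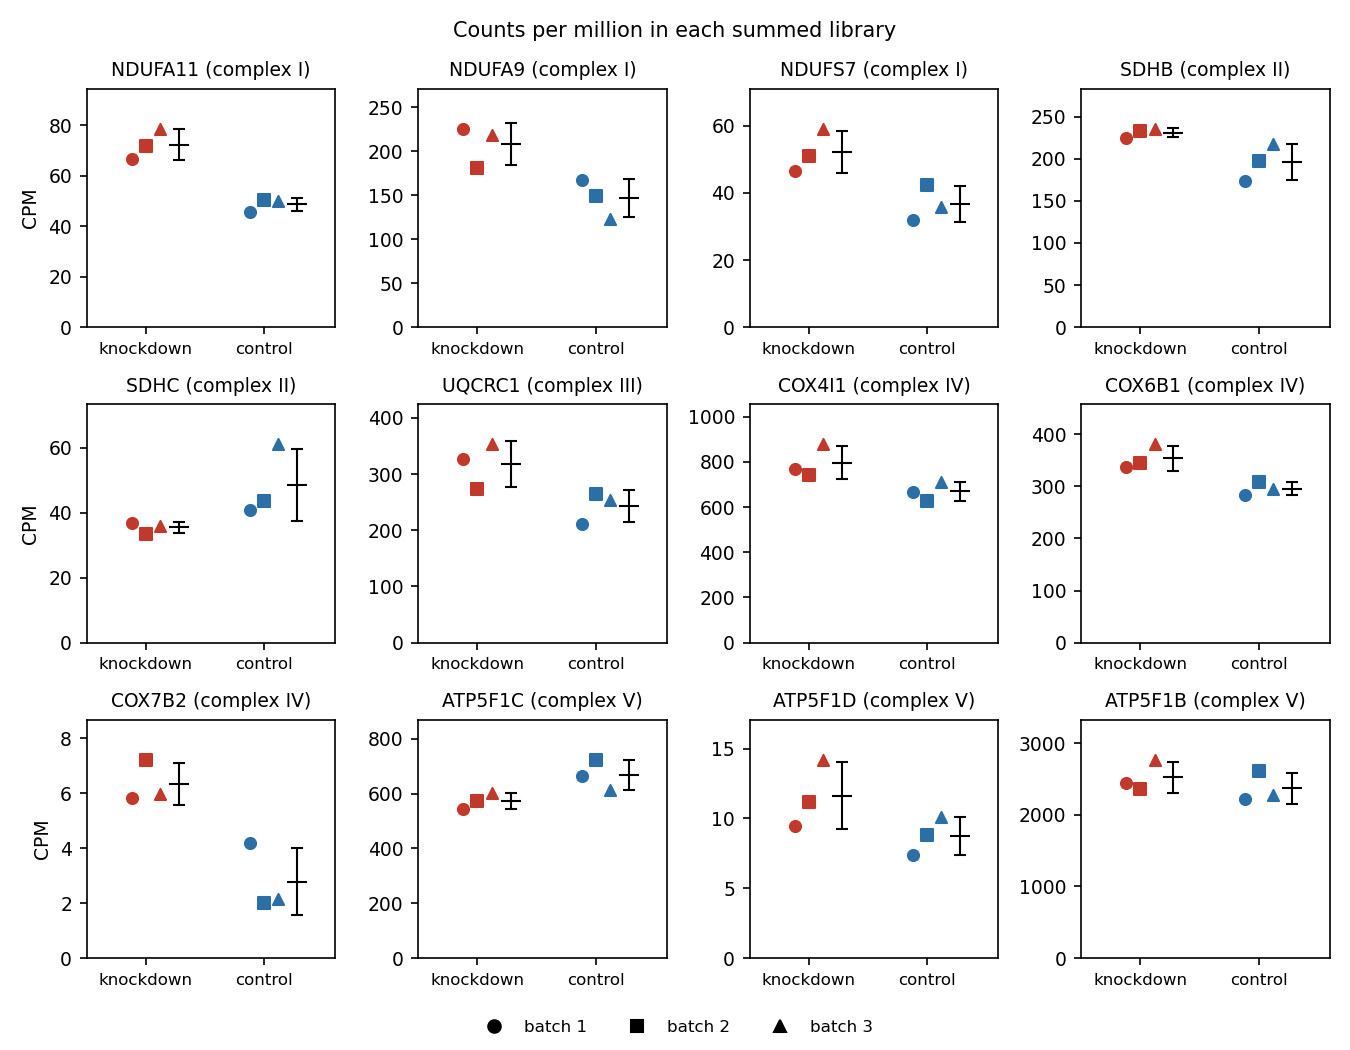
CPM in each summed library for 12 members, with knockdown left of control; marker shapes give the batch, and the bars beside the points give the mean and SD of 3 libraries, on axes that start at 0. NDUFA11, NDUFA9, NDUFS7, SDHB, UQCRC1, COX4I1, COX6B1 and COX7B2 separate upward in knockdown, SDHC and ATP5F1C downward, and ATP5F1B and ATP5F1D overlap.

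Complex II, which has no mitochondrially encoded subunit, held members on both sides. Its 4 genes had a median log2 fold change of 0.09, and 3 were above 0. SDHB (chr1:17018722-17054170, minus strand), the iron-sulfur subunit, had 225.0, 233.0 and 235.8 CPM in knockdown libraries and 174.2, 197.2 and 217.3 CPM in control libraries. SDHC (chr1:161314257-161375340, plus strand), a membrane anchor that helps bind ubiquinone and haem, had 37.0, 33.5 and 36.0 CPM in knockdown libraries and 40.8, 43.7 and 61.2 CPM in control libraries. For SDHB all knockdown values were above all control values, and for SDHC all were below, so 2 subunits of 1 complex separated in opposite directions. Neither passed: the log2 fold change was 0.24 ± 0.12 SE for SDHB (adjusted p = 0.448) and -0.45 ± 0.21 SE for SDHC (adjusted p = 0.408), and the difference between these genes was not tested. SDHC had the most negative log2 fold change among the 79 members, and it kept its sign in all 15 alternative fits (-0.57 to -0.25, the smallest without the control library of batch 3). Without the control library of batch 1 the value of SDHB was 0.15. SDHD (chr11:112086773-112120013, plus strand), the other anchor, had 403.9, 391.4 and 420.5 CPM in knockdown libraries and 381.5, 379.9 and 365.9 CPM in control libraries. Its arms were narrowly apart, and the difference on the log2 scale was 0.11 ± 0.09 SE (adjusted p = 0.701). SDHA, the flavoprotein that oxidises succinate, overlapped between arms with means of 73.7 ± 8.5 CPM in knockdown and 70.1 ± 12.7 CPM in control libraries (SD, n = 3 each).

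All 10 complex III members had a log2 fold change above 0, with a median of 0.14. UQCRC1 (chr3:48599002-48610976, minus strand), a core matrix subunit, had 326.2, 274.1 and 353.2 CPM in knockdown libraries and 211.2, 264.3 and 254.4 CPM in control libraries. The arms were apart, but batch 2 contributed little, and the log2 fold change of 0.39 ± 0.14 SE had an adjusted p of 0.292. UQCR11 (chr19:1597172-1605490, minus strand), a small accessory subunit, had 226.8, 233.4 and 256.3 CPM in knockdown libraries and 151.6, 218.6 and 209.0 CPM in control libraries, a difference of 0.31 ± 0.16 SE on the log2 scale (adjusted p = 0.475). Its control library of batch 1 was far below the other 2, and without that library the log2 fold change was 0.15. CYC1, the haem subunit cytochrome c1, had 53.7, 69.3 and 65.9 CPM in knockdown libraries and 48.4, 58.7 and 52.3 CPM in control libraries, with overlap (log2 fold change 0.24 ± 0.17 SE, adjusted p = 0.633). UQCRQ, a small subunit and the most abundant member of the complex per kilobase, averaged 540.9 ± 55.3 CPM in knockdown and 518.2 ± 30.4 CPM in control libraries (SD, n = 3 each), also overlapping, and its log2 fold change of 0.06 turned to -0.012 without the knockdown library of batch 3.

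UQCRHL is a near copy of UQCRH, the hinge protein of complex III, so reads of the 2 genes can be hard to assign. Their coding sequences, read from GENCODE 29 on GRCh38, have the same 276 bases in length and differ at 4 of them (98.6% identical), with 157 bases as the longest identical run. They are shown whole because their likeness limits what the counts of either gene mean; capitals mark the bases that differ.

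UQCRHL: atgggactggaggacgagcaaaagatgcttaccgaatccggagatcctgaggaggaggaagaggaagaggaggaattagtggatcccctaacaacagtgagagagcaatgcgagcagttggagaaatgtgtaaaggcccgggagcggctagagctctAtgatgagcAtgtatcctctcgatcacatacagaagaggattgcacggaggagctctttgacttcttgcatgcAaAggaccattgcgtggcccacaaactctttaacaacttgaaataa

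UQCRH: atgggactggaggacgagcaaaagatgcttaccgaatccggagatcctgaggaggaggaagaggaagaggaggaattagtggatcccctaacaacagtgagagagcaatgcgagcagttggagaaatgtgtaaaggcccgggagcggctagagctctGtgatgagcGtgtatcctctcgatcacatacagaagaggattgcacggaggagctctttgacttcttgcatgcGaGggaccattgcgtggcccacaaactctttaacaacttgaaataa

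UQCRHL had 106.4, 121.3 and 123.5 CPM in knockdown libraries and 100.6, 106.4 and 115.3 CPM in control libraries, and UQCRH averaged 367.9 ± 26.4 CPM in knockdown and 334.9 ± 21.3 CPM in control libraries (SD, n = 3 each). Both overlapped between arms, with close log2 fold changes of 0.12 ± 0.13 SE for UQCRHL and 0.14 ± 0.11 SE for UQCRH. How the authors' counting divided reads between them was not tested, so both values are uncertain.

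Complex IV combined high ubiquitous subunits with tissue-restricted isoforms that were near 0. Its 14 tested members had a median log2 fold change of 0.15, with 11 above 0 and none past the test. COX4I1 (chr16:85798633-85807044, plus strand), a nuclear subunit that joins early in assembly, had 767.5, 740.0 and 878.1 CPM in knockdown libraries and 667.7, 626.8 and 712.0 CPM in control libraries. COX6B1 (chr19:35648223-35658861, plus strand), an intermembrane-space subunit near the cytochrome c binding face, had 336.8, 344.1 and 380.9 CPM in knockdown libraries and 282.6, 307.5 and 295.2 CPM in control libraries. In both genes the arms were separate, with log2 fold changes of 0.25 ± 0.10 SE for COX4I1 (adjusted p = 0.358) and 0.26 ± 0.10 SE for COX6B1 (adjusted p = 0.317). COX7A2L, which helps join complexes III and IV into supercomplexes, had 226.0, 215.3 and 214.1 CPM in knockdown libraries and 204.7, 196.5 and 177.7 CPM in control libraries, again without overlap (log2 fold change 0.18 ± 0.11 SE, adjusted p = 0.545). COX7A2, the widely expressed counterpart of COX7A1, averaged 547.7 ± 13.5 CPM in knockdown and 531.5 ± 48.2 CPM in control libraries, and its log2 fold change of 0.04 turned to -0.029 without the control library of batch 2. COX7B averaged 523.8 ± 44.4 CPM in knockdown and 473.6 ± 29.9 CPM in control libraries (SD, n = 3 each). NDUFA4 averaged 463.3 ± 26.9 CPM in knockdown and 410.6 ± 29.5 CPM in control libraries. The arms overlapped in these 3 genes.

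COX6A1, the non-muscle isoform of subunit VIa, was one of 3 tested complex IV members with a log2 fold change below 0, the others being COX8A and NDUFA4L2. It had 258.9, 288.4 and 329.6 CPM in knockdown libraries and 297.9, 311.9 and 300.6 CPM in control libraries. The knockdown values lay on both sides of the control values, and the log2 fold change of -0.05 ± 0.12 SE became positive in 4 of the 15 alternative fits.

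COX7B2, a relative of COX7B known from testis, was the member with the largest log2 fold change and one of the lowest in level. It had 5.82, 7.22 and 5.99 CPM in knockdown libraries and 4.19, 2.01 and 2.15 CPM in control libraries (chr4:46734827-46909235, minus strand). All knockdown values were above all control values, and the log2 fold change was 1.19 ± 0.45 SE with an adjusted p of 0.304. At least 1 read was found in 22.7%, 32.3% and 26.2% of knockdown cells by batch (95% Clopper-Pearson intervals 13.3% to 34.7%, 21.2% to 45.1% and 15.8% to 39.1%), against 9.21%, 10.6% and 17.9% of control cells (3.78% to 18.1%, 4.37% to 20.6% and 9.61% to 29.2%). The reads came from few cells: 1 cell gave 27.3%, 21.7% and 19.7% of them in knockdown batches 1, 2 and 3, and 53.9%, 44.2% and 22.2% in the control libraries. After thinning each cell to 100000 reads, these shares became 13.6%, 23.1% and 16.4% in knockdown and 6.58%, 6.06% and 8.96% in control libraries, keeping the order. Such intervals cover counting error only.

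NDUFA4L2, known as a hypoxia-induced gene, showed no steady order. It had 2.91, 13.3 and 2.91 CPM in knockdown libraries and 5.61, 6.17 and 10.4 CPM in control libraries. The knockdown library of batch 2 was the highest of the 6 and the other 2 knockdown libraries were the lowest, and the log2 fold change was -0.21 ± 0.67 SE (adjusted p = 0.947). COX6B2, the testis isoform of COX6B1, and COX7A1, the muscle isoform of COX7A2, failed the filter on low counts. COX6B2 had 42, 9 and 1 reads in knockdown batches 1, 2 and 3, and 2, 8 and 0 in the control libraries. COX7A1 had 3, 0 and 1 reads in knockdown libraries and 0 in each control library. In the batch 1 knockdown library 83.3% of the COX6B2 reads came from 1 cell. None of the 76, 66 and 67 control cells had a COX7A1 read, and the exact (Clopper-Pearson) 95% upper limits are 4.74%, 5.44% and 5.36%, which bound the share of cells with a read and not of cells that express the gene.

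Complex V members had a median log2 fold change of 0.11, with 12 of 15 above 0 and none past the test. ATP5F1B, the beta subunit (chr12:56638175-56646068, minus strand), had 2440, 2363 and 2768 CPM in knockdown libraries and 2221, 2617 and 2275 CPM in control libraries. The most abundant subunit gene thus overlapped between arms, and batch 2 ran opposite to the other batches (log2 fold change 0.09 ± 0.10 SE, adjusted p = 0.811). ATP5F1C (chr10:7788129-7807815, plus strand), the gamma subunit that forms the rotating central stalk, had 543.5, 574.4 and 600.2 CPM in knockdown libraries and 665.2, 723.4 and 614.3 CPM in control libraries. All knockdown values were below all control values, against the direction of most members, with a log2 fold change of -0.22 ± 0.10 SE and an adjusted p of 0.401. Its sign was the same in all 15 alternative fits (-0.28 to -0.15). ATP5F1D (chr19:1241746-1244826, plus strand), the delta subunit of the same stalk, had 9.48, 11.2 and 14.2 CPM in knockdown libraries and 7.35, 8.82 and 10.1 CPM in control libraries. The arms overlapped (log2 fold change 0.41 ± 0.30 SE, adjusted p = 0.654, and 0.24 without the knockdown library of batch 3), and its level lay far under that of its partners in the complex.

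ATP5MC1, ATP5MC2 and ATP5MC3 encode the same mature c subunit, which forms the membrane ring that proton flow turns, each with its own import sequence. The 3 coding sequences end in 234 bases, stop codon included, that translate to the same residues, and this stretch is shown because 3 genes of different sequence give 1 protein here; the sequences come from GENCODE 29 on GRCh38, and capitals mark positions at which the 3 are not all alike.

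ATP5MC1: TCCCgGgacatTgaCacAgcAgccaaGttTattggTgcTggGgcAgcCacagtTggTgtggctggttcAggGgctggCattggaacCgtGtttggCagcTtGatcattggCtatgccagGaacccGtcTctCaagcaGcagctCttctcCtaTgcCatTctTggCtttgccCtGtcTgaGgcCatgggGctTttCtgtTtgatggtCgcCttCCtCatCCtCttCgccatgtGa

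ATP5MC2: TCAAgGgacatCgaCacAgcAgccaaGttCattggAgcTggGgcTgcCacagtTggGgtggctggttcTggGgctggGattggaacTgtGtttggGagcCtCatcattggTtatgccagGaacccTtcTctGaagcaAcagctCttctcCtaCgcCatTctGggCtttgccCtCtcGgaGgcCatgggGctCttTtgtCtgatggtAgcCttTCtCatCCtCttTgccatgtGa

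ATP5MC3: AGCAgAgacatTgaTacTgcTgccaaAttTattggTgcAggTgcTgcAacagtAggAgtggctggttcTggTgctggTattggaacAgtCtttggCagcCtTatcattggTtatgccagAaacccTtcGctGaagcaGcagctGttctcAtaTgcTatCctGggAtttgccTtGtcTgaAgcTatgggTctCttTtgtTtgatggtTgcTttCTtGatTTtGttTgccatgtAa

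Over this stretch ATP5MC1 and ATP5MC2 are 88.5% identical and each is 79.9% identical to ATP5MC3, while 0 of 77 codons differ in amino acid between any pair. ATP5MC3 (chr2:175176258-175184607, minus strand) had 503.3, 529.2 and 662.6 CPM in knockdown libraries and 434.3, 507.9 and 453.0 CPM in control libraries. ATP5MC1 had 319.9, 335.1 and 399.4 CPM in knockdown libraries and 333.0, 364.4 and 297.4 CPM in control libraries. ATP5MC2 had 422.5, 424.2 and 455.7 CPM in knockdown libraries and 443.9, 452.0 and 469.0 CPM in control libraries. The 3 genes did not share a direction: ATP5MC3 was higher in knockdown within every batch with 1 knockdown library inside the control range (log2 fold change 0.28 ± 0.13 SE, adjusted p = 0.427), ATP5MC1 was mixed (0.08 ± 0.13 SE, adjusted p = 0.869), and ATP5MC2 was lower within every batch (-0.07 ± 0.09 SE, adjusted p = 0.845). Without TMM scaling the value of ATP5MC2 was 0.0072, and without the knockdown library of batch 3 that of ATP5MC1 was -0.018 and that of ATP5MC3 0.15.

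In single cells nearly all members were found in nearly all cells. Of the 81 members, 70 had a read in over 90% of cells in both arms and 77 in over 50%. Member reads per 1000000 reads of nuclear genes in a cell had medians of 25770, 26230 and 29530 in the knockdown cells of batches 1, 2 and 3, and 23200, 24310 and 24260 in the control cells. The cells of the 2 arms overlapped broadly, although the medians did not. In batch 1 the 25th and 75th percentiles were 22800 and 31090 for knockdown cells, against 20360 and 26830 for control cells. A median cell had a read of 77 members in each of the 6 libraries. Cells over 20% mitochondrial reads numbered 6, 0 and 2 in the knockdown libraries and 21, 8 and 6 in the control libraries of batches 1, 2 and 3. Without them the member sums (RPM of all reads) were 25980, 24498 and 26877 in knockdown and 22846, 23195 and 23477 in control libraries, within-batch differences of 13.7%, 5.62% and 14.5%, and the median log2 fold change of members stayed at 0.15.

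**Figure D5:**
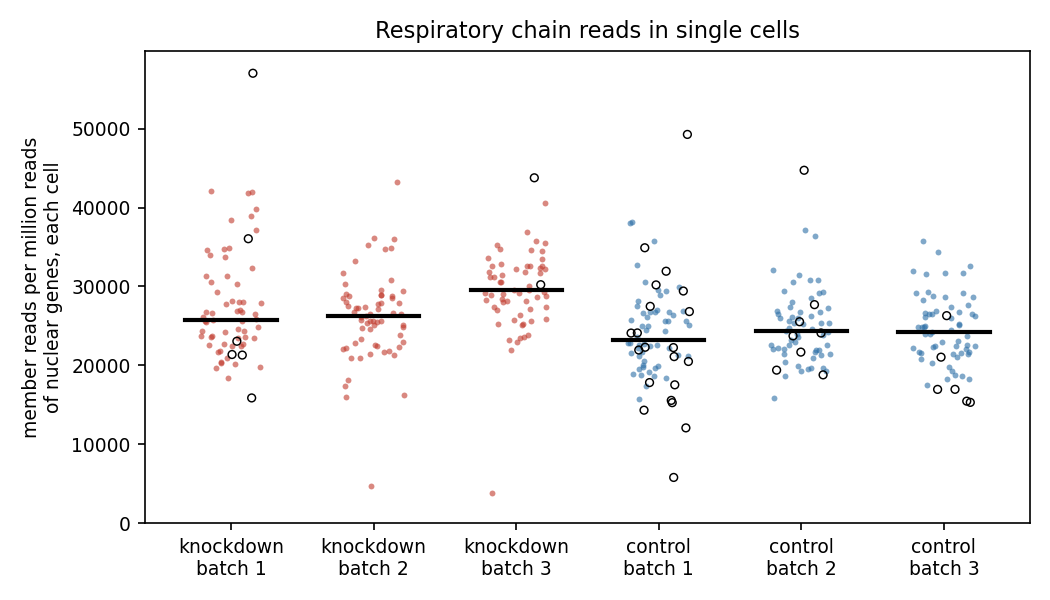
Each point is 1 cell, placed by its member reads per 1000000 reads of nuclear genes; open circles are cells over 20% mitochondrial reads, and bars are medians. The medians of the 3 knockdown libraries, 25770 to 29530, lie above those of the 3 control libraries, 23200 to 24310, while the cells overlap.

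The 13 subunits encoded by mitochondrial DNA did not follow the nuclear ones. All 13 had a log2 fold change below 0, with a median of -0.55, and none passed the test in edgeR (lowest adjusted p 0.456; 0 at an unadjusted p under 0.05) or in DESeq2. Within batches their median differences were -1.08, -0.31 and 0.08 in batches 1, 2 and 3, so that their direction was not shared by the batches. Their summed RPM of all reads were 87049, 67840 and 82214 in knockdown libraries and 159820, 80778 and 72354 in control libraries. The control library of batch 1 was far above the other 5, and without the cells over 20% mitochondrial reads the sums were 58221, 67840 and 75663 in knockdown and 64537, 66587 and 58628 in control libraries, a log2 ratio of means of 0.09 in place of -0.40.

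Other mitochondrial gene lists gave smaller medians than the subunits, and 0 genes of each passed the test in edgeR. The 48 assembly factors, which help build the complexes, had a median log2 fold change of 0.06 with 29 above 0, the 17 genes of the tricarboxylic acid cycle and pyruvate dehydrogenase -0.05 with 7 above 0, and the 14 genes of mitochondrial fission, fusion and turnover -0.01 with 7 above 0. The 18 regulators of mitochondrial genes had a median of -0.11 with 7 above 0, and the 9 other subunits and carriers -0.01 with 4 above 0. At an unadjusted p under 0.05 there were 12, 5, 1, 3 and 2 genes in these lists, in this order, against 13.5% of all genes tested, and 10 of the 12 assembly factors were higher in knockdown. The genes that DESeq2 called included the assembly factors COX16 and NDUFAF2, the cycle genes IDH3A and SUCLG2, the regulator YY1 and the carrier CYCS, all lower in knockdown. CYCS, the somatic cytochrome c that carries electrons from complex III to complex IV, had 667.9, 578.6 and 709.2 CPM in knockdown libraries and 862.4, 847.0 and 904.5 CPM in control libraries. Every knockdown value was below every control value, unlike in most subunit genes, though without passing the test in edgeR (log2 fold change -0.42 ± 0.10 SE, adjusted p = 0.134). IDH3A, a subunit of the NAD-dependent isocitrate dehydrogenase, had 29.7, 33.6 and 53.0 CPM in knockdown libraries and 75.8, 89.7 and 92.3 CPM in control libraries (-1.15 ± 0.24 SE, adjusted p = 0.0983). TFAM, which packages mitochondrial DNA and helps transcribe it, had 132.2, 127.1 and 130.1 CPM in knockdown libraries and 205.4, 161.5 and 165.9 CPM in control libraries (-0.45 ± 0.13 SE, adjusted p = 0.183). CYCS, IDH3A, TFAM and these genes called by DESeq2 are named here after their values were seen.

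The promoters of subunit genes are known targets of NRF1, of ETS-family factors such as the GABP complex, and of YY1. In RefSeq promoters (GRCh38.p14, 250 bases before to 50 after the start), 64 of the 81 members were matched. Members and protein-coding genes were counted per gene, with a match in any of their promoters, while all promoters were counted singly. The share of all promoters is thus not on the same basis as the other shares. On either strand, the NRF1 letters (GCGC, any base, TGCGC) occurred in 23.4% of members, 5.78% of all 35116 promoters and 11% of 13306 protein-coding genes. The ETS letters CCGGAAG occurred in 31.2% of members, 10.3% of all promoters and 18.6% of protein-coding genes. The YY1 letters GCCATNTTG occurred in 18.8%, 2.92% and 5.32% of these, and TATAAA in 9.38%, 11.5% and 10.9%. The motifs were searched separately and 1 promoter can hold several. A stretch of 30 bases is shown for 11 of the members described above, so that the letters can be set beside their values. Each reads along the gene's strand, capitals mark the match, and a match on the other strand appears as GCGCA, any base and GCGC, or as CTTCCGG.

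NDUFA11, NRF1, chr19:5903869-5903898, minus strand: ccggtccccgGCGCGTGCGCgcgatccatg

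NDUFA9, NRF1, chr12:4649024-4649053, plus strand: ttcttggttaGCGCTTGCGCagacaggcga

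NDUFB4, NRF1, chr3:120596263-120596292, plus strand: ctctgctaacGCGCAGGCGCacttcctgaa

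SDHD, NRF1, chr11:112086753-112086782, plus strand: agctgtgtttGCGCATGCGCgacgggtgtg

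UQCRC1, NRF1, chr3:48609674-48609703, minus strand: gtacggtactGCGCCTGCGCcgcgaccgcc

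UQCR11, NRF1, chr19:1605463-1605492, minus strand: cGCGCGTGCGCgccgcggccGCGCCTGCGC

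ATP5F1C, NRF1, chr10:7788145-7788174, plus strand: gggagcttcgGCGCATGCGCgctgaggcct

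SDHB, ETS, chr1:17054143-17054172, minus strand: ccacccgggaaaCCGGAAGccgcctcccac

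UQCRQ, ETS, chr5:132866576-132866605, plus strand: aaatggtatctcCCGGAAGttacctcacga

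COX6B1, ETS, chr19:35648293-35648322, plus strand: agtccccacctctctcagCTTCCGGctggt

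COX6A1, ETS, chr12:120438083-120438112, plus strand: attttccacttccgCTTCCGGcgctgcggc

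RefSeq starts can lie inside the outermost GENCODE bounds given above, so that stretches such as those of NDUFA11, UQCRC1 and ATP5F1C fall within these bounds. The NRF1 letters occurred in RefSeq promoters of genes of both directions, among them NDUFA11, with the largest difference in complex I, and ATP5F1C, which was lower in knockdown. UQCR11 had 2 matches within 30 bases. The 15 tested members with the NRF1 letters had a median log2 fold change of 0.27 and the 48 without 0.14. For the ETS letters the medians were 0.14 in 20 members with them and 0.18 in 43 without. For the YY1 letters they were 0.145 in 12 members with them and 0.179 in 51 without. These differences between members with and without a motif were not tested. The transcript of NRF1 itself had 30.6, 8.05 and 10.4 CPM in knockdown libraries and 9.91, 9.83 and 14.7 CPM in control libraries, overlapping, and YY1 had 78.7, 115.2 and 90.5 CPM in knockdown libraries and 194.4, 139.0 and 135.8 CPM in control libraries, without overlap (adjusted p = 0.177 for YY1 and 0.780 for NRF1).

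Base composition and position moved with the differences. Among protein-coding genes averaging at least 20 CPM, the median log2 fold change in 4 equal bins of rising GC content of the transcript was -0.12, -0.10, 0.0018 and 0.10. The members at this level had a median GC content of 49.9%, against 45.1% for these genes, and their medians in the same bins were 0.10 (6 members), 0.17 (14), 0.13 (24) and 0.21 (32). The median of the members was above that of all these genes in each bin. The part of composition in the differences of the members was not tested. By chromosome, a split chosen after the values were seen, the 10 tested members on chromosome 19 had a median of 0.38 and the other 69 a median of 0.14, against 0.07 for 291 protein-coding genes of chromosome 19 at this level and -0.03 for 5922 others. Their median GC content was 60.9%, so that chromosome and composition cannot be told apart in these members.

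Processed pseudogenes, intronless copies of mature transcripts, took a visible part of the reads for some subunits. The table has 105 pseudogene rows named for 40 members, and 7 of them averaged at least 20 CPM. NDUFV2P1 averaged 382 CPM over the 6 libraries, against 97.1 CPM for its parent NDUFV2, a flavoprotein-fraction subunit of complex I, and took 79.8% of the pair. COX6A1P2 averaged 233.5 CPM against 297.9 CPM for COX6A1 (43.9% of the pair), and NDUFA4P1 135.7 CPM against 437.0 CPM for NDUFA4 (23.7%). The levels of these 3 members are therefore uncertain, since reads could be counted for either copy. With each pair summed, the log2 ratio of arm means was 0.18 for NDUFV2, -0.02 for COX6A1 and 0.17 for NDUFA4, against log2 fold changes of 0.26, -0.05 and 0.17 for the parents alone.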

How the data were processed

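Raw read counts per gene and cell were deposited by the authors as 1 table; the submitters' processing notes name build GRCh38.p3, HTSeq 0.6.1, TopHat2 2.1.0, edgeR 3.2.2 and FastQC 0.11.3. Strand setting and annotation release: not given in the sources used here. Labels placed 401 of 414 listed samples in an arm and batch; 4 value columns were not used. Counts were summed to 3 knockdown and 3 control libraries of 71630108 to 84359044 reads, the batch being the replicate, since cells are not. Reads without molecular identifiers are not independent molecules.

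In R 4.3.3, edgeR 4.0.16 fitted a robust quasi-likelihood model without covariates after TMM scaling and filterByExpr (minimum count 10), and p-values of 20326 genes were adjusted by Benjamini-Hochberg (threshold 0.05). CPM are TMM-scaled. It was tested on simulated data. DESeq2 1.42.0, other scalings, no filter, equal cell weights, cells under 20% mitochondrial reads and leaving out each library were alternatives. The labels' word Batch pairs the arms; deviations of paired libraries correlated at 0.0780, 0.000547 and 0.000233. Coordinates, lengths and coding sequences are from GENCODE 29 (GRCh38); Python 3.11.15 was used for the rest. Members and lists were chosen with earlier results of these data known. Members with full values were the 3 with the largest log2 fold change per complex of constant direction within batches, the most abundant per kilobase, those failing the filter, and isoforms matched by name. Not every gene of the lists is reported here.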

Additional observations from a re-analysis of the deposited data

How the results depend on the processing

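Over 15 alternative fits, 27 tested members described by rule gave 405 values, of which 393 kept their direction and side of the threshold, 11 turned sign, and 1, NDUFA11 in DESeq2, passed (adjusted p = 0.00742). The count of all genes called, 158, was 38 with the replicate block, 1442 in DESeq2, 309 with no filter, 49 with the block and without cells over 20% mitochondrial reads, and 46 to 69 with 1 library left out. Members called numbered 2 in DESeq2 and 0 otherwise, and the replicate block changed no call of a member. Without TMM scaling, which moved the median of all genes to 0.08, the median log2 fold change was 0.22 over all members, 0.21 in complex III and 0.23 in complex IV. The complex IV median was 0.095 to 0.18 with 1 library left out, the lowest being without the control library of batch 1. Sign turned for COX6A1 without TMM scaling (0.020) and without cells over 20% mitochondrial reads (0.059, and 0.054 with the block), and for ATP5MC2 without TMM scaling (0.0072). With 1 library left out, ranges that crossed 0 were -0.15 to 0.024 for COX6A1, -1.35 to 0.13 for NDUFA4L2, -0.012 to 0.13 for UQCRQ, -0.029 to 0.095 for COX7A2 and -0.018 to 0.16 for ATP5MC1. The cause was not tested. Only COX6B2 and COX7A1 had too few reads for the test, and the part of depth in this was not tested.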
